A study of Mus musculus with 4 samples.

Results

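The genes described here build the acrosome, the secretory vesicle that covers the sperm nucleus, or are stored in it. Their 10 symbols were set by name, *Spata16*, *Acr*, *Acrv1*, *Acrbp*, *Spaca1*, *Zpbp*, *Zpbp2*, *Izumo1*, *Dpy19l2* and *Spam1*, and all 10 were found among the 24411 rows of the deposited tables. All 4 libraries were made from RNA of GFP-positive cells of mouse testis at postnatal day 18. All animals carried a *Rec8* allele tagged with 3xFLAG-HA-p2A-GFP, in which GFP is translated together with the meiotic cohesin REC8. The groups were 2 control libraries from testes heterozygous for a Cas9-made *Zfp541* deletion (*Zfp541*+/-) and 2 libraries labelled *Zfp541* KO, called KO-labelled below because only the label gives their genotype. Controls thus carry 1 intact copy of the gene, and no wild-type library was analysed. The knock-in was homozygous in both KO testes and in 1 control testis but heterozygous in the other control testis, and the labels do not say which control that is. The labels name a mixed C57BL/6 and CBA strain, whereas the study's methods give C57BL/6. Each value is in TPM, a level per gene length that gives the share of a gene among all transcripts of the library, and the sequencing depth is unknown.

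The acrosome grows from vesicles of the Golgi that dock on the nucleus of the round spermatid, after meiosis. Many of its genes are nevertheless transcribed earlier, in pachytene spermatocytes, and their messengers are kept until the proteins are needed. SPATA16 is a Golgi-associated protein. SPACA1 and DPY19L2 help to fix the acrosome to the nuclear envelope, and loss of SPACA1 or DPY19L2 gives round-headed sperm without a normal acrosome. ZPBP and ZPBP2 are proteins of the acrosomal matrix that shape the vesicle and bind the zona pellucida. Acrosin (ACR) is its main protease, ACRBP holds the proenzyme of acrosin, ACRV1 is a spermatid acrosomal antigen, SPAM1 is the sperm hyaluronidase, and IZUMO1 is the receptor for fusion with the egg.

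The transcript of the targeted gene did not bear out the labels. *Zfp541* had 112 TPM in control 1 and 72.2 TPM in control 2, against 136 and 151 TPM in KO-labelled libraries 1 and 2. It was thus higher in both KO-labelled libraries than in both controls. The study describes a deletion that begins in exon 1 and spans many exons, with no ZFP541 protein in KO testis by immunoblot. The value per gene does not separate deleted from remaining exons, so it cannot show whether deleted exons were read. Every direction below is therefore drawn from the labels alone. The controls stood apart from each other. The median absolute difference over the 14512 genes tested (mean of at least 1 TPM) was 0.65 in log2(TPM + 1) between the controls and 0.16 between the libraries labelled *Zfp541* KO. *Rec8* itself was at 7.05 TPM in control 1 and 27.9 TPM in control 2, against 27.7 and 19.4 TPM in the KO-labelled libraries. Summed markers of Leydig cells were at 3603 TPM in control 1 and 19.4 TPM in control 2, and those of macrophages at 2045 and 21.6 TPM. The fold change of each member tested is therefore also given against either control alone. The median over all genes tested was 0.28 above 0 in the KO-labelled libraries. Median-ratio scaling removed this shift. Changes relative to 0.28 are therefore given as well for the members with both KO-labelled libraries above or below both controls.

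Promoter sequence is shown for 4 of the genes whose levels contrast, namely *Spata16*, with the largest difference between groups, *Zpbp2*, lower in both libraries labelled KO, *Dpy19l2*, whose groups overlap, and *Izumo1*, which was close to 0. RefSeq promoter entries (build GRCm38.p6) were found for 9 of the 10 genes. Each sequence runs 5′ to 3′ on the strand of the gene and ends just before its first annotated exon base. Capitals mark CACGTG, the E-box read by basic helix-loop-helix factors, and the cyclic AMP response element TGACGTCA or its core TGACG, the element read by CREM-type factors, with each motif searched on both strands. *Spata16* is shown for chr3:26637381-26637619 (plus strand), *Zpbp2* for chr11:98550847-98551096 (plus), *Dpy19l2* for chr9:24696294-24696543 (minus) and *Izumo1* for chr7:45621561-45621810 (plus).
Spata16: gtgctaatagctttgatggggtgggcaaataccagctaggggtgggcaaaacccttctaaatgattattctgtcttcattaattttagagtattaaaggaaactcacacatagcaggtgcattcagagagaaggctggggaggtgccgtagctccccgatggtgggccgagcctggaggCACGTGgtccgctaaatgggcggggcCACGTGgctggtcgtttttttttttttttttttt
Zpbp2: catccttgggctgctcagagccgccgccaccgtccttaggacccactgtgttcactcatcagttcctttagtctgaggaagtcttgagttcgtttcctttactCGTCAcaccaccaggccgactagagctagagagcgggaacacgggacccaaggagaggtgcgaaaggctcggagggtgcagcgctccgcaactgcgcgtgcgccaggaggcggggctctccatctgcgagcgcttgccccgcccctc
Dpy19l2: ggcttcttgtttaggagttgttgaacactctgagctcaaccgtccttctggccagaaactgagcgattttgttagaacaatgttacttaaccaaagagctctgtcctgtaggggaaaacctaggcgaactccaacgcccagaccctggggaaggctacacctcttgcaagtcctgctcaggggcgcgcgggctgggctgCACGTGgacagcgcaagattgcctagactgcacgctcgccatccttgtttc
Izumo1: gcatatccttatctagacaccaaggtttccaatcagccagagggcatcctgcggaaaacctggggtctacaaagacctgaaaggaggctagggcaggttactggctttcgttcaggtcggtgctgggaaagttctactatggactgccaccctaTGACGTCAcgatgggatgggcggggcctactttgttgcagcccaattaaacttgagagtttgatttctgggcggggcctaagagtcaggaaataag

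In the 250 bases before the RefSeq start site, *Spata16* held 2 copies of CACGTG, from -71 to -66 and from -45 to -40, and *Dpy19l2* held 1, from -51 to -46. This motif was present in 6.05% of 27025 promoters of the same length. *Spata16* and *Dpy19l2* thus share the motif, and its part in their levels was not tested. The full TGACGTCA was found once, in *Izumo1* from -96 to -89, and in 1.62% of all promoters. Its core TGACG, which lies within the full element, was found in *Izumo1*, *Zpbp2*, *Acrbp* and *Spaca1*, and in 17.9% of all promoters. The window of *Acrbp* consists of annotated exon bases throughout, and those of *Spaca1* and *Acrv1* hold 126 and 220 such bases, so these 3 are not shown. Neither motif was found in the windows of *Acrv1*, *Zpbp* and *Spam1*. The motifs were chosen after the sequences and values had been seen, and a match of letters is a description only.

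By level per gene length, 7 members had a mean of at least 1 TPM and 3 were below it. In the controls *Acrbp* had the highest mean, 147 ± 113 TPM (SD, n = 2), followed by *Spata16* at 142 ± 92.5 TPM (SD, n = 2), *Zpbp2* at 126 ± 103 TPM (SD, n = 2), *Acr* at 77.4 ± 57.8 TPM (SD, n = 2), *Dpy19l2* at 54.8 ± 49.5 TPM (SD, n = 2), *Zpbp* at 42.2 ± 24.5 TPM (SD, n = 2) and *Spaca1* at 10.6 ± 4.64 TPM (SD, n = 2). No neighbours in this order from *Acrbp* down to *Zpbp* differed by more than their spread between the controls. In the libraries labelled *Zfp541* KO the order was different. *Acrbp* at 23.9 and 36.1 TPM, *Zpbp2* at 26.9 ± 6.85 TPM (SD, n = 2), *Spaca1* at 26.8 ± 0.30 TPM (SD, n = 2), *Zpbp* at 25.3 ± 2.86 TPM (SD, n = 2), *Dpy19l2* at 22.8 ± 6.24 TPM (SD, n = 2) and *Acr* at 19.9 ± 2.81 TPM (SD, n = 2) lay close together, and *Spata16*, at 4.42 and 13.6 TPM, was the lowest of the 7.

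**Figure D1:**
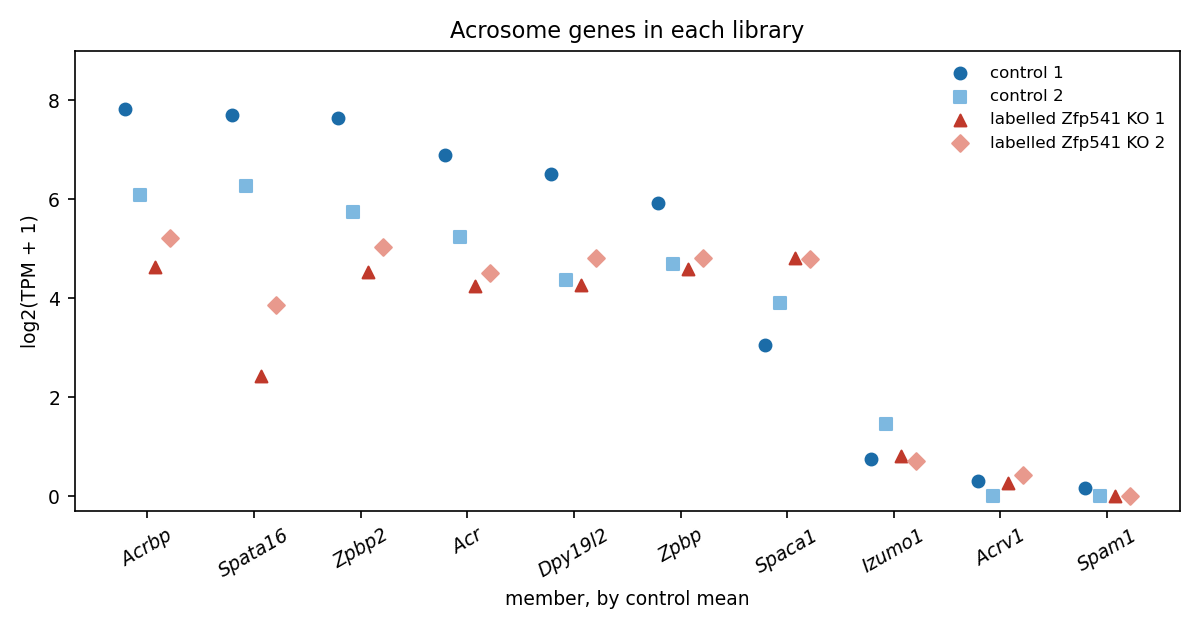
Level of each member, as log2(TPM + 1), in the 4 libraries (1 point per library, members ordered by their mean in the controls). Control 1 is the highest library for 6 of the 7 members tested, *Spaca1* is highest in the KO-labelled libraries, and *Izumo1*, *Acrv1* and *Spam1* lie below the others.

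None of the 7 members tested passed an FDR of 0.05 in limma between the groups, against 0% of the genes tested called lower and 0% called higher. Their adjusted p ran from 0.310 to 0.610, and 0.310 was also the smallest over all 14512 genes. At an unadjusted p under 0.05, 4 members were lower (3.73% of all genes tested) and 1 was higher (10.7%). In the same 4, *Spata16*, *Acrbp*, *Zpbp2* and *Acr*, both libraries labelled *Zfp541* KO lay below both controls (12.1% of all genes), and in *Spaca1* both lay above (38.6%). The same split was found at 2-fold or more on the log2(TPM + 1) scale, with 4 members lower (5.22% of all genes) and 1 higher (8.99%). The median difference of the 7 was -1.68, beside 0.28 for all genes. The members had been chosen with earlier results of these data known, so a share above that of all genes is a description of the 7. A single higher member among 7 is a smaller share than the 38.6% of all genes that lay above both controls.

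*Spata16* (ENSMUSG00000039335, chromosome 3 of GRCm38 from 26637620 to 26983212, plus strand) showed the largest difference. It had 207 TPM in control 1 and 76.3 TPM in control 2, against 4.42 and 13.6 TPM in KO-labelled libraries 1 and 2. Both controls were far above both other libraries, although within each group the libraries also differed by 1.43 in log2(TPM + 1). The log2 fold change was -3.83 (standard error 0.72, 95% interval -5.79 to -1.88, adjusted p = 0.310 from limma), or -4.12 relative to the median of all genes. It ranked 22 from the most negative value among the 14512 genes. Without control 1 it was -3.12, and without control 2 it was -4.55, so the difference was present against either control. Here and in the results that follow, fewer cells of a stage in these bulk samples and less RNA per cell cannot be told apart.

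*Acrbp*, *Zpbp2* and *Acr* formed a second group with nearly the same pattern. *Acrbp* (chromosome 6 from 125049689 to 125063267) was at 227 and 67.1 TPM in the controls versus 23.9 and 36.1 TPM in the KO-labelled libraries, with a limma log2 fold change of -2.03 ± 0.65 (standard error) and an adjusted p of 0.322. *Zpbp2* (chromosome 11 from 98551097 to 98558665) was at 199 and 52.4 TPM in the controls versus 22.1 and 31.7 TPM in the KO-labelled libraries, a limma log2 fold change of -1.91 ± 0.70 with an adjusted p of 0.343. *Acr* (chromosome 15 from 89568326 to 89574585) was at 118 and 36.5 TPM in the controls versus 18.0 and 21.9 TPM in the KO-labelled libraries, giving -1.68 ± 0.61 with an adjusted p of 0.343 in the limma fit. In all of these, control 1 was 1.67 to 1.90 above control 2 on the log2(TPM + 1) scale, a gap about as large as the difference between the groups. Relative to the median of all genes their fold changes were -2.32 for *Acrbp*, -2.19 for *Zpbp2* and -1.97 for *Acr*. Against control 2 alone they were smaller, -1.16 for *Acrbp*, -0.96 for *Zpbp2* and -0.85 for *Acr*, and against control 1 alone they were -2.90, -2.86 and -2.52. *Acrbp* shares 90 exonic bases with 4930557K07Rik on the opposite strand, which was at 3.73 TPM or less in every library. It also shares 975 exonic bases, 29.8% of its own, on the same strand with Gm44597, which has no row of its own, so reads from either gene may be part of the *Acrbp* value. The sources do not say whether counting used the strand.

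*Dpy19l2* and *Zpbp* did not separate the groups. *Dpy19l2* (chromosome 9 from 24557047 to 24696293) was at 89.8 and 19.8 TPM in the controls versus 18.4 and 27.2 TPM in the KO-labelled libraries. Control 1 was the only library that stood out, and control 2 lay between the libraries labelled KO. The log2 fold change was -0.90 (95% interval -3.01 to 1.22, adjusted p = 0.610 from limma). *Zpbp* (chromosome 11 from 11279626 to 11462408) was at 59.6 and 24.9 TPM in the controls versus 23.3 and 27.3 TPM in the KO-labelled libraries, a log2 fold change of -0.59 (95% interval -1.89 to 0.70, adjusted p = 0.586 from limma). Here too control 1 alone was high. Without control 1 the sign turned, to 0.17 for *Dpy19l2* and 0.020 for *Zpbp*, whereas without control 2 the values were -1.96 and -1.21. After median-ratio scaling or quantile normalization both genes were lower in both libraries labelled KO, which made 6 members of 7 lower without overlap. The share of all genes without overlap was not counted after these scalings. *Zpbp* shares 223 exonic bases, 5.25% of its own, with *Spata48* on the opposite strand, which has no row under that name. Reads of *Spata48* may thus be part of the *Zpbp* value if counting ignored the strand.

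**Figure D2:**
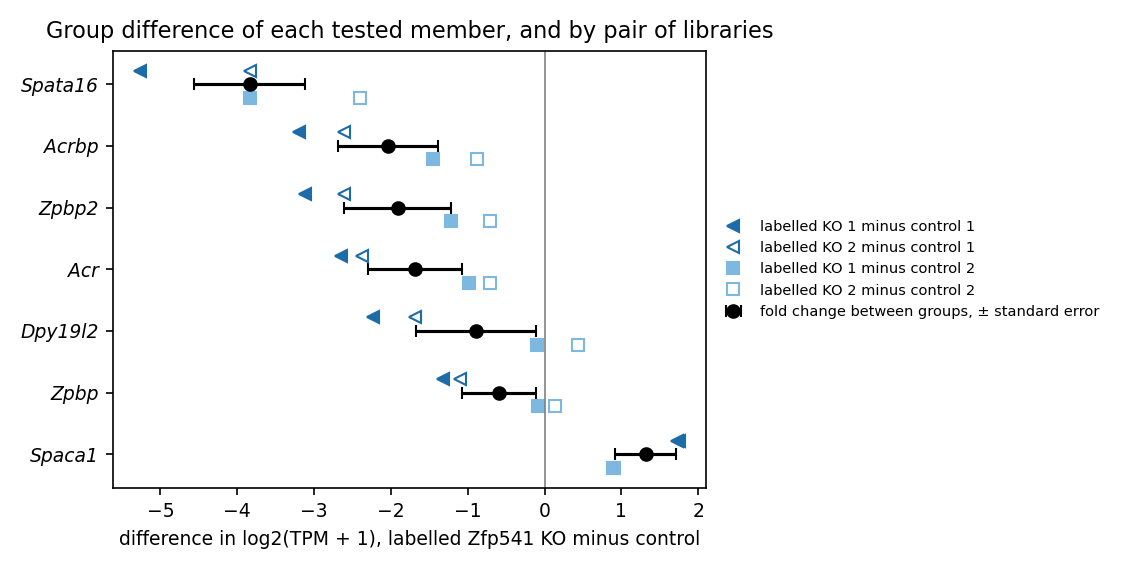
Difference between the groups for the 7 members tested, in log2(TPM + 1), as the limma estimate with its standard error (black) and as the 4 differences between single libraries (blue). For *Spata16*, *Acrbp*, *Zpbp2* and *Acr* all 4 pairs lie below 0, for *Spaca1* all lie above 0, where its 2 points against each control nearly coincide, and for *Dpy19l2* and *Zpbp* the pairs with control 2 lie on both sides of 0.

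*Spaca1* was the 1 member with the opposite direction. It (ENSMUSG00000028264, chromosome 4 from 34024874 to 34050191, minus strand) was at 7.34 and 13.9 TPM in the controls versus 27.0 and 26.6 TPM in the KO-labelled libraries. The libraries labelled KO were nearly equal, and control 1, the highest library for the other members tested, was here the lowest. The log2 fold change was 1.32 (standard error 0.40, 95% interval 0.25 to 2.39, adjusted p = 0.319 from limma), or 1.03 relative to the median of all genes, and it ranked 528 from the most positive value. Without control 1 it was 0.90 and without control 2 it was 1.74.

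*Izumo1*, *Acrv1* and *Spam1* stayed below the minimum mean of 1 TPM and were not tested. *Izumo1* was at 0.68 and 1.77 TPM in the controls versus 0.77 and 0.63 TPM in the KO-labelled libraries. Of its exonic bases 21.9% also belong to *Rasip1* on the same strand, which was at 1.88 to 5.88 TPM, so reads of the 2 genes may not be separable. *Acrv1* was at 0.24 TPM and listed at 0 in the controls, and at 0.21 and 0.35 TPM in the KO-labelled libraries. *Spam1* was at 0.12 TPM in control 1 and listed at 0 in the other libraries. Both genes belong to the spermatid stage. Among the 9 markers of that stage the highest values were those of the transition protein gene *Tnp2*, at 7.59 TPM, and the kinase gene *Tssk1*, at 6.81 TPM, both in control 1, and *Prm1* and *Prm2*, the protamines of the sperm nucleus, were at 1.48 TPM or less in every library.

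**Figure D3:**
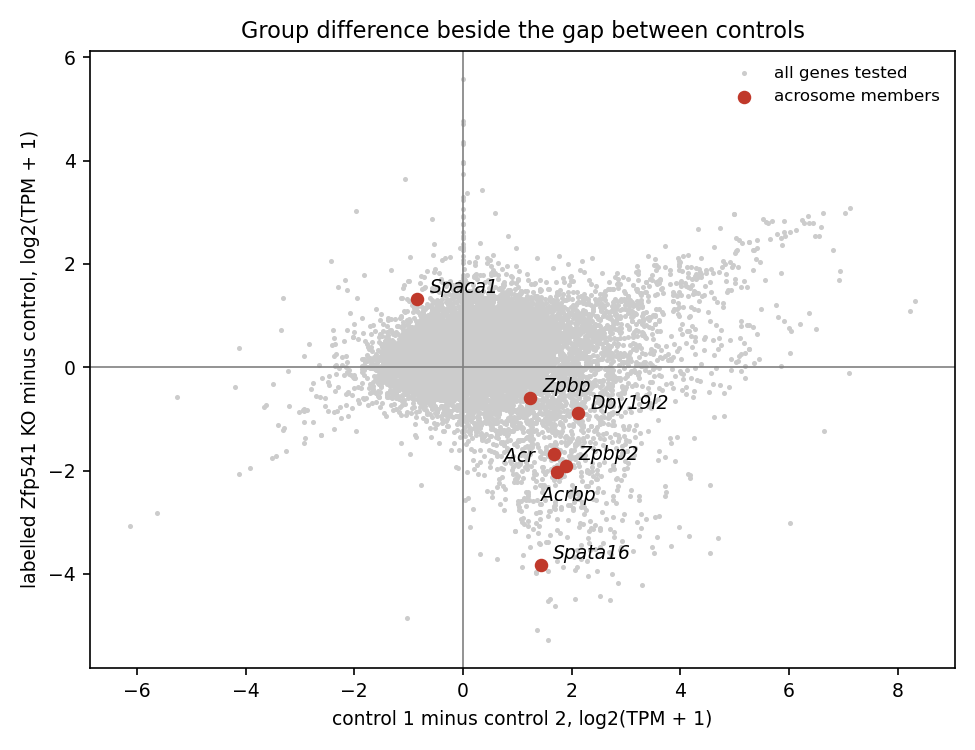
Difference between the groups (vertical axis) against the gap between the 2 controls (horizontal axis) for 14512 genes, both in log2(TPM + 1), with the 7 members tested in red. The 6 members with lower values in the KO-labelled libraries were all higher in control 1 than in control 2, and *Spaca1* lies on the opposite side of 0 on both axes.

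The gap between the controls was a common feature of the members. On the log2(TPM + 1) scale, control 1 exceeded control 2 in 6 of the 7, by 1.23 for *Zpbp* to 2.13 for *Dpy19l2*, whereas 26% of all genes tested were at least 2-fold higher in control 1. The median gap was 1.67 for the members and 0.36 for all genes. Between the libraries labelled *Zfp541* KO the differences were smaller, and *Spata16* had the largest at 1.43, with library 2 the higher one. Measured as a Euclidean distance between centred log2(TPM + 1) profiles over the 4 libraries, the closest members were *Acrbp* and *Zpbp2* at 0.18, and *Acr* was 0.33 from *Zpbp2* and 0.42 from *Acrbp*. The related genes *Zpbp* and *Zpbp2* were 1.41 apart, and *Spata16* and *Spaca1* were the farthest pair at 5.49.

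Set against the mean of the other 6 members tested in the same library, *Spata16* was higher by 1.39 and 1.27 in the controls and was lower in both KO-labelled libraries, at -2.08 in library 1 and less so in library 2. The 2 controls nearly coincided on this measure, although their levels of each gene differed. The change of -2.87 had p = 0.333 in a two-sided exact permutation test, which is the smallest p that 4 samples can give. Because the groups do not overlap on this measure, leaving out 1 library could not change the sign of the change. Its values without each library in turn ran from -3.41 to -2.33. In the same way *Zpbp2* was above *Zpbp* by 1.72 and 1.05 in the controls and at -0.074 and 0.21 in the KO-labelled libraries.

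The 5 genes with profiles closest to *Spata16* over the 4 libraries were 1700086L19Rik, 1700011E24Rik, *Pbp2*, *Ttc29* and *Mospd4*, at distances of 0.25 to 0.53. They were picked by distance to *Spata16* over these same values, so a shared pattern was fixed by the choice. Each was lower in both KO-labelled libraries than in both controls, and higher in control 1 than in control 2. *Pbp2*, for example, was at 180 and 60.1 TPM in the controls versus 4.08 and 8.17 TPM in the KO-labelled libraries. The mean profile of the other members was closest to *Odf2*, a gene of the outer dense fibres of the sperm tail, at a distance of 0.0092. This mean combines *Spaca1*, higher in the KO-labelled libraries, with members that were lower, so it need not match any single member. *Odf2* was also picked as the smallest distance among all genes tested. *Odf2* was at 754 and 303 TPM in the controls versus 216 and 277 TPM in the KO-labelled libraries. Next came 4930593A02Rik, *Ptges3l*, *Ccdc13* and Gm6981, at distances of 0.071 to 0.12.

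Other genes of the acrosome were described in the same way. Of 16 further genes needed for its formation, 13 were tested and none passed the FDR. Without overlap 3 were lower, beside 12.1% of all genes, and 2 were higher, a smaller share than the 38.6% of all genes. *Spink2*, an inhibitor of acrosomal proteases, was at 736 and 300.3 TPM in the controls versus 89.5 and 123 TPM in the KO-labelled libraries (log2 fold change -2.15, standard error 0.50). *Actl9*, an actin-like protein of the layer between acrosome and nucleus, was at 32.3 and 13.4 TPM in the controls versus 3.22 and 2.21 TPM in the KO-labelled libraries. In both genes the groups were well apart, while *Atg7*, an enzyme of autophagosome formation, had a smaller difference of -0.42 in this direction. *Vps54*, a subunit of a complex that tethers vesicles to the Golgi, was higher, at 40.2 and 25.2 TPM in the controls versus 74.4 and 73.1 TPM in the KO-labelled libraries, as was *Pick1*, a vesicle scaffold protein, with a log2 fold change of 0.24. The median of the 13 was 0.24, close to that of all genes.

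Of 13 further genes for acrosomal content or membrane, 6 were tested and none passed the FDR. Without overlap 3 were lower (12.1% of all genes) and 1 was higher (38.6% of all genes), and the median was -1.27 beside 0.28 for all genes. *Dkkl1*, a protein of the acrosome, had controls that were close to each other, at 901 and 623 TPM, and was at 120 and 164 TPM in the KO-labelled libraries (-2.41 ± 0.30 on the log2 scale with its standard error, limma adjusted p 0.310). *Crisp2*, a cysteine-rich protein of the acrosome and tail, was at 1016 and 255 TPM in the controls versus 71.3 and 131 TPM in the KO-labelled libraries. *Atp8b3*, a lipid flippase of the acrosomal membrane, was at 427 and 131 TPM in the controls versus 36.1 and 64.1 TPM in the KO-labelled libraries. The higher gene was *Eqtn*, of the equatorial segment, at 2.16 TPM or less in every library. *Spaca4*, *Spaca7* and the hyaluronidase gene *Hyal5* were listed at 0 in all 4 libraries.

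**Figure D4:**
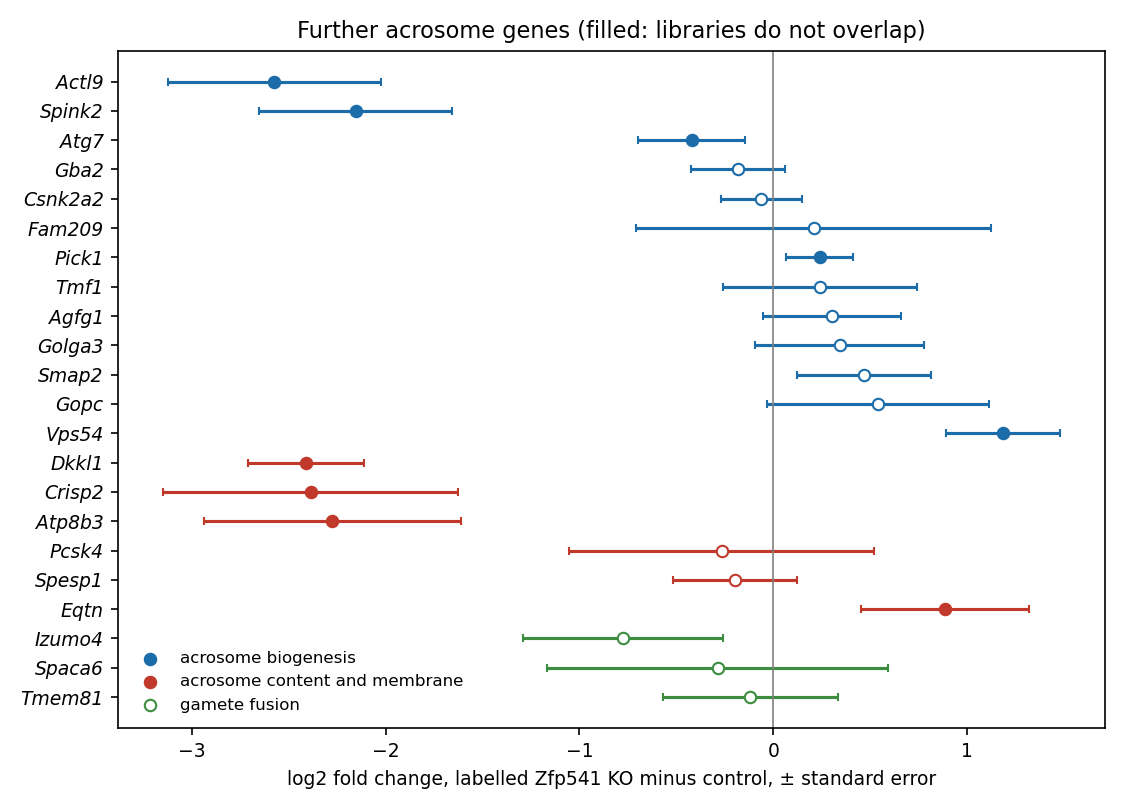
Difference between the groups for 22 further acrosome and fusion genes, as limma log2 fold change with its standard error (filled points, the libraries of the groups do not overlap). Among the filled points, *Spink2*, *Actl9*, *Dkkl1*, *Crisp2* and *Atp8b3* lie near -2 to -3 and *Atg7* lies at -0.42. *Vps54*, *Eqtn* and *Pick1*, also filled, lie above 0.

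Among the genes of sperm-egg fusion, 8 of 10 symbols were found and 3 were tested, of which none separated the groups. *Izumo4*, a relative of *Izumo1*, was at 122 and 46.0 TPM in the controls versus 39.8 and 47.4 TPM in the KO-labelled libraries, the pattern of *Dpy19l2* and *Zpbp*. *Izumo2* and *Izumo3* were listed at 0 throughout. Of the relatives of *Dpy19l2*, *Dpy19l1* was at 56.3 and 23.4 TPM in the controls versus 55.1 and 59.7 TPM in the KO-labelled libraries, and *Dpy19l4* was higher in both of the latter (log2 fold change 0.99, adjusted p = 0.420 from limma). Of 9 factors that control spermatid genes, 8 were tested. None was lower without overlap, and 2, *Rfx3* and *Mybl1*, were higher, a smaller share than the 38.6% of all genes. *Rfx3*, a factor of ciliary genes, was at 3.54 and 2.64 TPM in the controls versus 8.53 and 8.40 TPM in the KO-labelled libraries, and *Mybl1*, the pachytene activator A-MYB, had a log2 fold change of 0.77. *Tcfl5*, a basic helix-loop-helix factor of spermatocytes, was at 352 and 147 TPM in the controls versus 147 and 150 TPM in the KO-labelled libraries, and *Crem* was at 91.5 and 52.7 against 70.2 and 85.5 TPM.

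Markers of meiotic stage also differed between the libraries. Of 8 pachytene markers 4 were lower without overlap, *Ldhc*, *Pgk2*, *Ccna1* and *Aurkc*, beside 12.1% of all genes. The summed level of all 8 was 6318 and 3016 TPM in the controls versus 2223 and 3102 TPM in the KO-labelled libraries, so the groups overlapped in the sum. Each of them was higher in control 1 than in control 2. Of 8 leptotene and zygotene markers 7 were higher without overlap, beside 38.6% of all genes, with sums of 2165 and 2564 TPM in the controls versus 4337 and 4487 TPM in the KO-labelled libraries, the direction seen for *Spaca1*. Spermatogonial markers summed to 328 and 985 TPM in the controls versus 677 and 489 TPM in the KO-labelled libraries, and Sertoli cell markers to 972 and 837 against 1205 and 868 TPM. Leydig cell markers were at 391.9 and 606 TPM and macrophage markers at 1687 and 1251 TPM in the KO-labelled libraries, between the controls given above, and no marker of either list was at 0 in all 4 libraries. The 9 spermatid markers summed to 18.4 and 3.52 TPM in the controls and to 5.61 and 7.55 TPM in the KO-labelled libraries, and *Lelp1* was listed at 0 in all. The 4 peritubular myoid markers summed to 12.2 and 18.2 TPM against 23.9 and 17.9 TPM. The part of these lists in the differences of the acrosome genes was not tested.

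**Figure D5:**
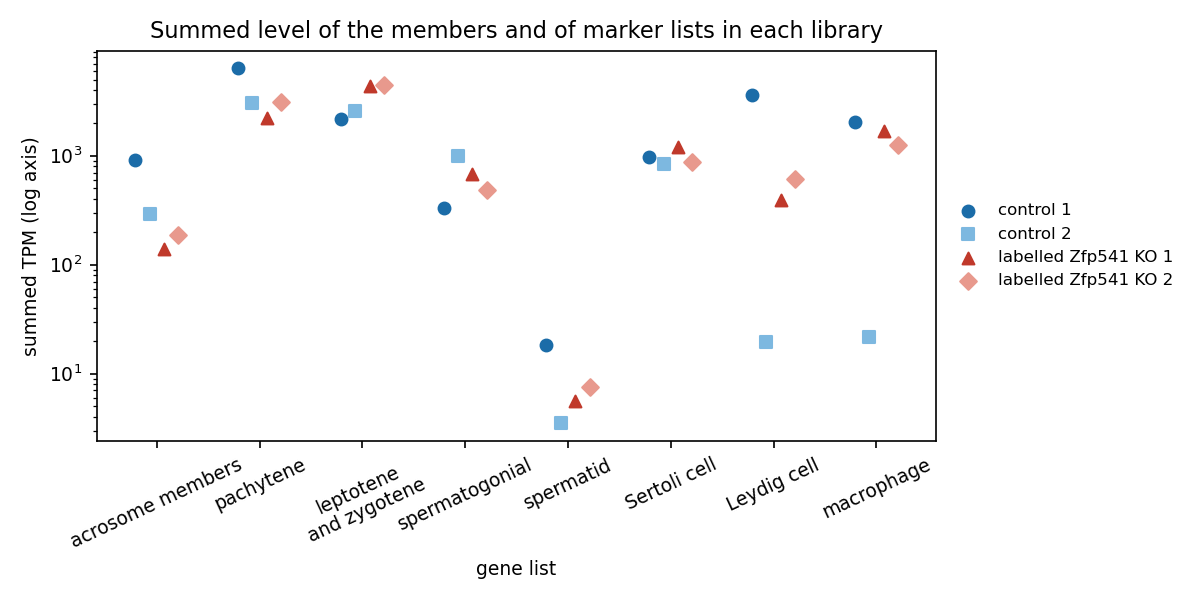
Summed TPM of the 10 acrosome members and of 7 marker lists in each library, on a log axis (1 point per library). The members and the pachytene markers are highest in control 1, the leptotene and zygotene markers are highest in the KO-labelled libraries, and Leydig cell and macrophage markers are lowest in control 2.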

How the data were processed

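RNA-seq of GFP-positive testis cells was analysed for 2 *Zfp541*+/- and 2 *Zfp541* KO libraries, grouped by their labels. Per the labels and the study's methods, the authors trimmed reads with Trim Galore 0.5.0 (cutadapt 1.16), aligned them to mm10 with STAR 2.6.0a, estimated gene levels with RSEM 1.3.1 and deposited TPM. Depth is unknown, and the authors' own differential test with RSEM was not repeated.

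Genes averaging 1 TPM or more over the libraries (14512) were fitted by genotype as log2(TPM + 1) with limma 3.58.1 (R 4.3.3, variance trend on mean level). The FDR limit was 0.05 after the adjustment of Benjamini and Hochberg. Fold changes on this scale understate those of low genes. With 2 testes a group, each limma p-value sets a difference against the spread within the groups, moderated by a trend over all genes tested. Single contrasts used SciPy 1.17.1. Of the rows, 27 carry dates for symbols and got no gene name.

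Members, gene lists and markers were chosen with earlier results of these data known. Named were all members, genes of the further acrosome, fusion, paralogue and regulator lists without overlap and at least 2-fold, the 5 closest profiles, and others singled out after their values were seen. Positions come from GENCODE (GRCm38) and older symbols from RefSeq; *Fimp* and *Dcst2* were unmatched. Alternatives covered pseudocount, filter, scaling, variance model, FDR, replicate block and leaving out each library.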

Additional observations from a re-analysis of the deposited data

How the results depend on the processing

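No member passed the FDR under another pseudocount, filter, scaling, variance model or threshold, nor with the replicate block (0 lower and 0 higher, median -1.68), although the labels do not say that the numbers pair animals. A block with the numbers crossed was not planned. It was added once the deviations of control 1 and KO-labelled library 1 were seen to correlate at -0.16. Because this block was picked from the spread that it removes, its p-values cannot decide whether a member differs. Under it 1 member was below the FDR limit as lower, *Spata16* (adjusted p = 0.0171 from limma), among 80 genes lower and 7 higher. With the planned replicate block the adjusted p of *Spata16* was 0.508 from limma. Over the fits without 1 library, members past the FDR ranged from 0 to 6 lower and from 0 to 1 higher. Without control 1 these were 4 and 1 (*Spata16*, *Acrbp*, *Zpbp2* and *Acr*, and *Spaca1*), and without control 2 they were 6 and 1. In these fits the lone control is assumed to vary as little as the libraries labelled KO, and 1375 and 1875 genes were lower and 5610 and 2248 higher. Without either library labelled KO no member passed. Only *Zpbp* (0.020) and *Dpy19l2* (0.17) changed sign, both without control 1, and without control 2 they were -1.21 and -1.96. The median of the members ranged from -2.52 to -0.85. Members lower without overlap were 4, or 6 with median-ratio scaling, with quantile normalization, without control 2 and without KO 2. The share of all genes lower without overlap, 12.1%, was counted in the main fit only, so the counts under other settings have no share beside them. The number of libraries and the unknown depth limit all these values.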
